A study of Mus musculus with 6 samples.

Results

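This account follows 10 genes that encode transcription factors of naive, stem-like and memory T cells, in RNA-seq libraries of cultured CD8+ Teff (effector T cells) from WT and Scd-1-/- mice. The genes are Tcf7, Lef1, Bach2, Id3, Satb1, Foxo1, Foxp1, Myb, Bcl6 and Lyl1. They were listed by name, with earlier results of these data known, and all 10 were found among the 34745 genes of each library. The 3 WT libraries came from C57BL/6J mice and the 3 Scd-1-/- libraries from mice of the strain B6.129-Scd1tm1Ntam/J, which lack stearoyl-CoA desaturase-1 in every tissue, so the deletion was not limited to T cells and preceded the culture. The mice were males aged 6 to 8 weeks, and the genotypes came from separate sources (a donated and a purchased colony), so genotype and colony cannot be told apart. In both groups CD8+ cells were isolated from spleen, stimulated for 3 days with anti-CD3 (5 μg/mL), anti-CD28 (0.5 μg/mL) and IL-2 (100 U/mL), and kept in IL-2 for 3 more days. The labels number the libraries of each genotype 1 to 3 and do not say whether a number stands for a mouse or a culture, so p-values measure the spread between these libraries, which may be technical.

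A CD8+ T cell that meets antigen divides and either becomes a short-lived killer cell or keeps the capacity to renew itself as a memory cell. TCF1 (encoded by Tcf7) and LEF1 bind the same DNA letters and hold cells in the naive or memory state, ID3 blocks the DNA binding of E proteins, and BACH2, FOXO1, FOXP1, MYB, SATB1 and BCL6 each hold back parts of the effector programme or of activation. LYL1 is a basic helix-loop-helix factor of blood progenitors that pairs with E proteins.

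The total count of a library lay between 14034479 and 15866216, and a count of 0 would allow up to 3 counts, for counting error only. The deletion was seen in every library labelled Scd-1-/-, which held 20 to 36 counts of Scd1 against 3074 to 4272 in WT. The first principal component of the log2 CPM (42.9% of the variance) set replicate 1 apart from replicates 2 and 3 in both genotypes, and the second (36.3%) separated WT from Scd-1-/-, so values are also given for replicates 2 and 3 alone where they change a call. The summed level of 8 CD8 T cell markers was 4300 to 5130 CPM in WT and 4140 to 4940 CPM in Scd-1-/- libraries, and 0 of the 8 passed the thresholds. Among them Cd8a had 5037 to 5150 counts in WT and 3026 to 4390 in Scd-1-/- libraries (45.9 and 32.7 FPKM). Cd8b1 averaged 298 and 239 FPKM. Most of the sum came from the other genes, whose means differed less between genotypes, as with Lck (275 and 274 FPKM). A summed level of 7.13 to 9.69 CPM in WT and 25.8 to 65.8 CPM in Scd-1-/- was measured for 6 natural killer cell genes, mostly Klre1 and Klrb1c, with Ncr1 at 0 to 5 counts, and 1 of them, Klre1, was higher past the thresholds (1.05 and 4.75 FPKM). For 6 gamma delta T cell genes, mostly Tcrg-C2, these ranges were 98.0 to 134 and 205 to 459 CPM. Of these genes 1, Trdc, was higher past the thresholds (1.78 and 12.8 FPKM), and Sox13 and Zbtb16 were at 0 to 6 counts. In the lists that follow few genes were abundant enough to be tested, and none of these passed. The 8 myeloid genes summed to 5.34 to 6.86 and 11.9 to 19.0 CPM, with Adgre1 and Spi1 at 0 in all libraries. The 7 B cell genes, nearly all Ighm, summed to 323 to 597 and 216 to 324 CPM, with Ms4a1, Pax5 and Blnk at 0. The 4 CD4 T cell genes, mostly Zbtb7b, summed to 43.3 to 84.3 and 56.6 to 79.5 CPM, and the 8 genes of erythroid cells and platelets to 0.641 to 1.55 and 1.80 to 2.40 CPM. The part of these cells in the levels below was not tested, and in bulk RNA fewer cells of a type and less RNA per cell cannot be told apart.

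Tcf7 and Id3 were lower in Scd-1-/- than in WT Teff, and the other 8 genes did not pass the thresholds. A gene passed when its log2 fold change was 1 or more in either direction and its p was under 0.001, as the study set these with edgeR. Here they were applied to the unadjusted p of edgeR's quasi-likelihood test, over the 9627 genes whose FPKM (counts per gene length and library total) averaged 1 or more. Fold changes are Scd-1-/- over WT throughout. The 2 lower members were out of 8 tested at this FPKM, where 0.239% of all genes were lower past the thresholds. A Benjamini-Hochberg adjusted p under 0.05 was reached by Tcf7 alone, where 0.0415% of all genes were lower by that measure. Tcf7 and Lyl1 belong to gene panels that the study picked on these same libraries, so their direction here is not independent evidence. Apart from these libraries, the study measured TCF1 protein by flow cytometry and reported it reduced in Scd-1-/- Teff. Bach2 and Bcl6 lay under the FPKM minimum and were taken from a second fit that kept every one of the 17192 genes with a count, in which 0.320% of genes were lower past the thresholds and neither of these was. The fold change was below 0 for 8 of the 10 genes, with a median of -0.41, beside a median of -0.00 over all genes tested. All 3 WT libraries lay above all 3 Scd-1-/- libraries for 3 genes, Tcf7, Id3 and Lyl1, and the groups overlapped for 7, where such a separation was found for 7.33% of all genes with a count.

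**Figure D1:**
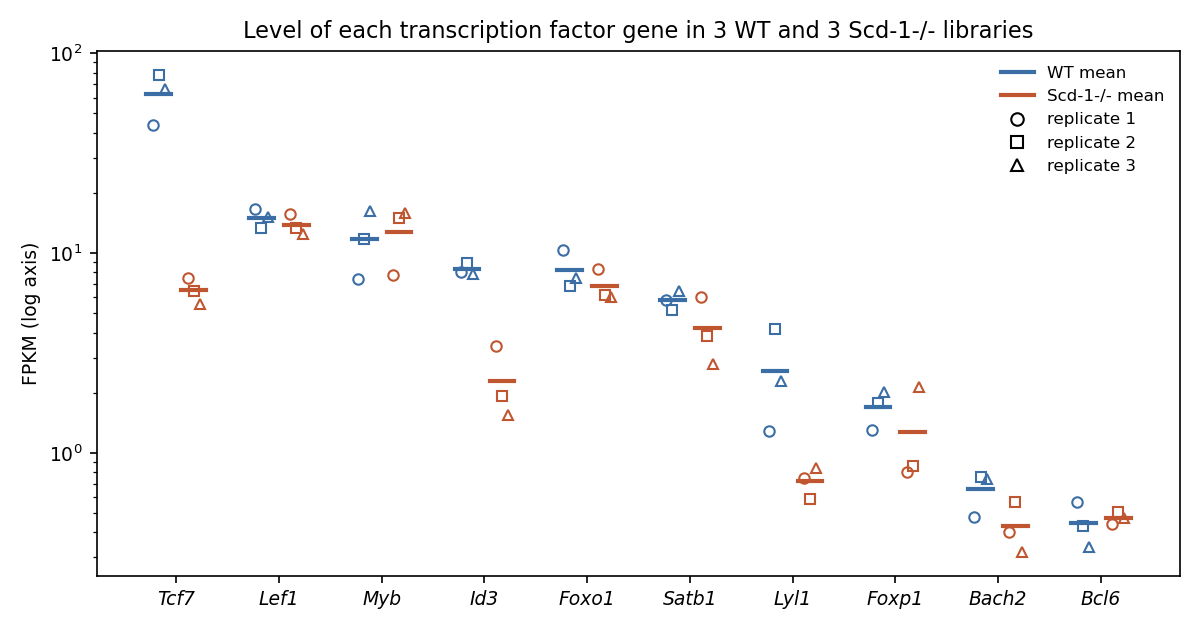
FPKM of the 10 genes in each library on a log axis, ordered by their mean in WT, with WT in blue, Scd-1-/- in orange, symbols for replicates 1 to 3 and bars for group means. The Tcf7, Id3 and Lyl1 points of the genotypes do not overlap, whereas those of the other 7 genes do, and Tcf7 drops from a mean of 62.7 to 6.51 FPKM.

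Tcf7 (ENSMUSG00000000782, chr11:52252371-52283014 of GRCm38, minus strand), the gene of TCF1, had 43.8, 78.2 and 66.0 FPKM in WT replicates 1, 2 and 3, and 7.51, 6.47 and 5.55 FPKM in the Scd-1-/- replicates. Every WT library lay far above every Scd-1-/- library. The WT mean was 62.7 ± 17.4 FPKM and the Scd-1-/- mean 6.51 ± 0.983 FPKM (SD, n = 3 each), or 10.4% of WT. The log2 fold change was -3.24 (SE 0.242, 95% interval -3.80 to -2.68, edgeR adjusted p = 0.00434), which is 9.45-fold lower. This fold change stayed past the thresholds of the study in each of the 14 alternative fits, between -3.55 and -3.05, although its edgeR adjusted p was 0.0581 without Scd-1-/- replicate 3. Spread in WT (CV 27.8%) was far above the 1.82% that counting error gives, and replicate 1 was the lowest WT library.

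Lef1 (ENSMUSG00000027985, chr3:131110471-131224356, plus strand), the close relative of Tcf7, had 16.6, 13.3 and 15.1 FPKM in WT and 15.7, 13.4 and 12.5 FPKM in Scd-1-/- libraries. The groups overlapped, with replicate 1 highest in both. Means were 15 ± 1.63 and 13.8 ± 1.64 FPKM (SD, n = 3 each), and the log2 fold change of -0.09 (SE 0.150, edgeR adjusted p = 0.900) had a 95% interval of -0.44 to 0.26, or 0.736-fold to 1.19-fold. A change as large as that of Tcf7 lies outside this interval. Reads of Lef1 and of its antisense partner Gm43352, which shares 1208 exonic bases and held 17 to 83 counts, may be mixed, since the strand setting of the counting is not given in the sources used here.

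The ratio of Tcf7 to Lef1 FPKM within a library was 2.64, 5.87 and 4.38 in WT and 0.479, 0.483 and 0.445 in Scd-1-/-. Tcf7 exceeded Lef1 in all 3 WT libraries and lay below it in all 3 Scd-1-/- libraries. The log2 ratio differed by -3.12 (exact permutation p = 0.1, two-sided, the smallest that 3 against 3 libraries allow, and 0.1 after adjustment over the 3 ratios tested).

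Id3 (ENSMUSG00000007872, chr4:136143497-136145755, plus strand), the inhibitor of E proteins that marks long-lived T cells, had 8.08, 8.92 and 7.85 FPKM in WT and 3.42, 1.92 and 1.54 FPKM in Scd-1-/- libraries. All WT values were above all Scd-1-/- values, and Scd-1-/- replicate 1 lay nearest to WT. The means of 8.28 ± 0.563 and 2.29 ± 0.993 FPKM (SD, n = 3 each) put the Scd-1-/- level at 27.7% of WT. The log2 fold change was -1.83 (SE 0.317, 95% interval -2.57 to -1.09), with an unadjusted p of 4.9e-04 and an edgeR adjusted p of 0.0898. The call was lost in most fits with 1 library left out. Id3 missed the threshold on p when WT replicate 1 (-1.83), 2 (-1.77) or 3 (-1.88) or Scd-1-/- replicate 2 (-1.72) or 3 (-1.61) was left out. It passed that threshold when Scd-1-/- replicate 1 was left out (-2.24). With the replicate number as a block, its edgeR adjusted p was 0.00936 (log2 fold change -1.89), and in the fit without an FPKM minimum it was 0.0359, where 0.174% of genes were lower at an adjusted p under 0.05.

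Id2, the paralog of Id3 that accompanies effector differentiation, had 103, 104 and 124 FPKM in WT and 154, 312 and 310 FPKM in Scd-1-/- libraries. It was higher in every Scd-1-/- library but missed the thresholds (log2 fold change 1.25, SE 0.263, edgeR adjusted p = 0.146), and it passed them with the replicate block (1.19, edgeR adjusted p = 0.0171) and with replicates 2 and 3 alone (1.48, edgeR adjusted p = 1.0e-04). The ratio of Id3 to Id2 was 0.0782, 0.0855 and 0.0635 in WT and 0.0222, 0.00614 and 0.00497 in Scd-1-/-, a log2 difference of -3.10 (exact permutation p = 0.1, the smallest possible).

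Bach2 (ENSMUSG00000040270, chr4:32238804-32586108, plus strand), a repressor that competes with AP-1 factors for DNA, was scarce, with 142, 208 and 205 counts in WT and 122, 157 and 99 counts in Scd-1-/- libraries. In FPKM these were 0.479, 0.759 and 0.738 against 0.401, 0.570 and 0.320, and the groups overlapped through WT replicate 1. The log2 fold change was -0.60 (SE 0.295, 95% interval -1.26 to 0.05, edgeR adjusted p = 0.629), and with 1 library left out it ranged from -0.85, when Scd-1-/- replicate 2 was dropped, to -0.42, when Scd-1-/- replicate 3 was. In the same libraries Prdm1, which encodes the effector regulator BLIMP1 and is a known target of BACH2, averaged 2.67 ± 0.913 FPKM in WT against 4.85 ± 0.868 FPKM in Scd-1-/- (SD, n = 3 each), with a log2 fold change of 0.87 (edgeR adjusted p = 0.329) that passed the thresholds with replicates 2 and 3 alone (1.33, edgeR adjusted p = 0.00161). The ratio of Bach2 to Prdm1 was 0.129, 0.343 and 0.355 in WT and 0.0993, 0.0988 and 0.0673 in Scd-1-/-, a log2 difference of -1.52 (exact permutation p = 0.1, the smallest possible). WT replicate 1 lay close to the Scd-1-/- libraries in this ratio.

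**Figure D2:**
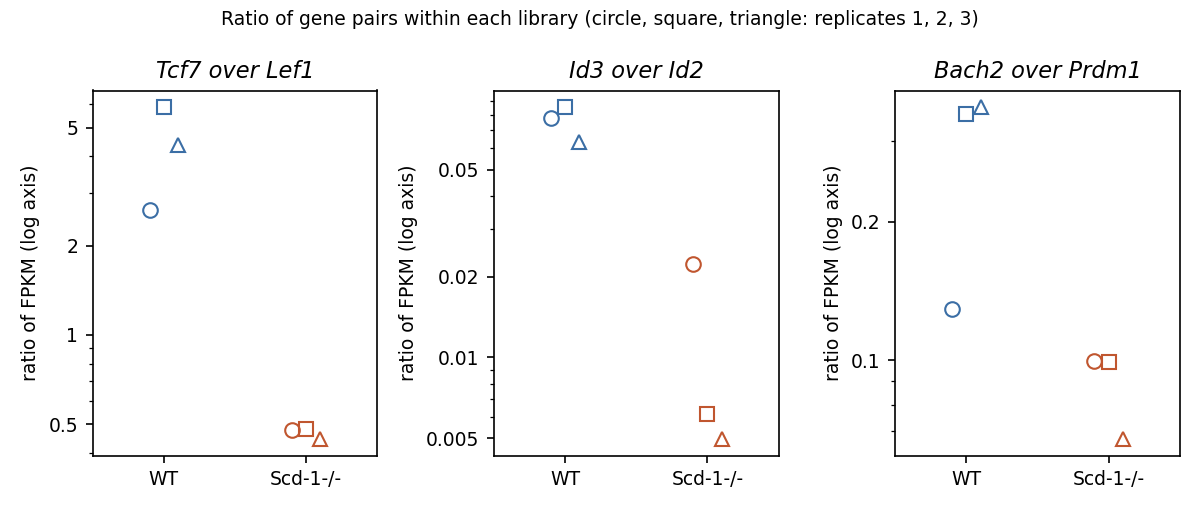
Ratios of FPKM within each library on log axes for Tcf7 over Lef1, Id3 over Id2 and Bach2 over Prdm1, with WT in blue and Scd-1-/- in orange. Every WT library lies above every Scd-1-/- library in each panel, narrowly for Bach2 over Prdm1, where the lowest WT ratio is 0.129 and the highest Scd-1-/- ratio is 0.0993.

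Satb1 (ENSMUSG00000023927, chr17:51736187-51833290, minus strand), a chromatin organiser of T cells, had 5.82, 5.20 and 6.45 FPKM in WT and 6.03, 3.83 and 2.80 FPKM in Scd-1-/- libraries. The overlap came from Scd-1-/- replicate 1, whereas Scd-1-/- replicates 2 and 3 lay below all WT libraries. Satb1 had a log2 fold change of -0.44 (SE 0.265, 95% interval -1.05 to 0.18, edgeR adjusted p = 0.645), which was -0.79 without Scd-1-/- replicate 1 (edgeR adjusted p = 0.0893) and -0.22 when Scd-1-/- replicate 3 was left out.

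Foxo1 (ENSMUSG00000044167, chr3:52268336-52353221, plus strand), a forkhead factor that keeps homing and survival genes on in resting T cells, had 10.4, 6.81 and 7.51 FPKM in WT and 8.34, 6.14 and 6.00 FPKM in Scd-1-/- libraries. Replicate 1 was highest in both genotypes and the groups overlapped. A log2 fold change of -0.25 (SE 0.224, 95% interval -0.77 to 0.27, edgeR adjusted p = 0.791) was found, which was -0.0282 without WT replicate 1 and -0.43 without Scd-1-/- replicate 1.

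Foxp1 (ENSMUSG00000030067, chr6:98925338-99522721, minus strand), a forkhead factor of T cell quiescence, had 1.3, 1.77 and 2.02 FPKM in WT and 0.806, 0.857 and 2.14 FPKM in Scd-1-/- libraries. Scd-1-/- replicate 3 was the highest of all 6 libraries and the other two Scd-1-/- libraries were the lowest. The log2 fold change of -0.39 (SE 0.388, 95% interval -1.29 to 0.51, edgeR adjusted p = 0.823) was -1.0 without that library (edgeR adjusted p = 0.422).

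Myb (ENSMUSG00000019982, chr10:21124935-21160984, minus strand), which supports self-renewal of memory CD8+ cells, had 7.42, 11.8 and 16.3 FPKM in WT and 7.76, 14.9 and 15.8 FPKM in Scd-1-/- libraries. Replicate 1 was lowest in both genotypes, and same-numbered libraries were close to each other. Its log2 fold change was 0.14 (SE 0.338, 95% interval -0.64 to 0.93, edgeR adjusted p = 0.932), and with the replicate block the SE was 0.118.

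Bcl6 (ENSMUSG00000022508, chr16:23965052-23988852, minus strand), a repressor that opposes BLIMP1, had 64, 45 and 36 counts in WT and 51, 53 and 56 counts in Scd-1-/- libraries, or 0.445 ± 0.114 and 0.472 ± 0.0323 FPKM (SD, n = 3 each). The Scd-1-/- values lay inside the WT range. Bcl6 had a log2 fold change of 0.10 (SE 0.336, 95% interval -0.64 to 0.84, edgeR adjusted p = 0.944), an interval that leaves changes of up to 1.79-fold undetected at this depth.

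Lyl1 (ENSMUSG00000034041, chr8:84701457-84704715, plus strand) had 35, 105 and 59 counts in WT and 21, 15 and 24 counts in Scd-1-/- libraries, or 1.28, 4.16 and 2.30 FPKM against 0.749, 0.591 and 0.840 FPKM. The groups did not overlap, and WT replicate 1 lay nearest to the Scd-1-/- libraries. The log2 fold change was -1.79 (SE 0.460, 95% interval -2.86 to -0.72), close to that of Id3, but the WT libraries spread widely (CV 56.5%, against 12.3% from counting error) and Lyl1 missed the thresholds (edgeR adjusted p = 0.233). It passed them without WT replicate 1 (-2.11), and it was at -1.26 without WT replicate 2. Among 6 progenitor genes, which summed to 2.99 to 11.5 CPM in WT and 3.21 to 4.75 CPM in Scd-1-/- libraries, Kit held nearly all counts and Hoxa9 was at 0 in every library. Lyl1 shares 4 exonic bases with Nfix on the other strand, which held 28 to 36 counts in WT and 8 to 22 in Scd-1-/-.

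**Figure D3:**
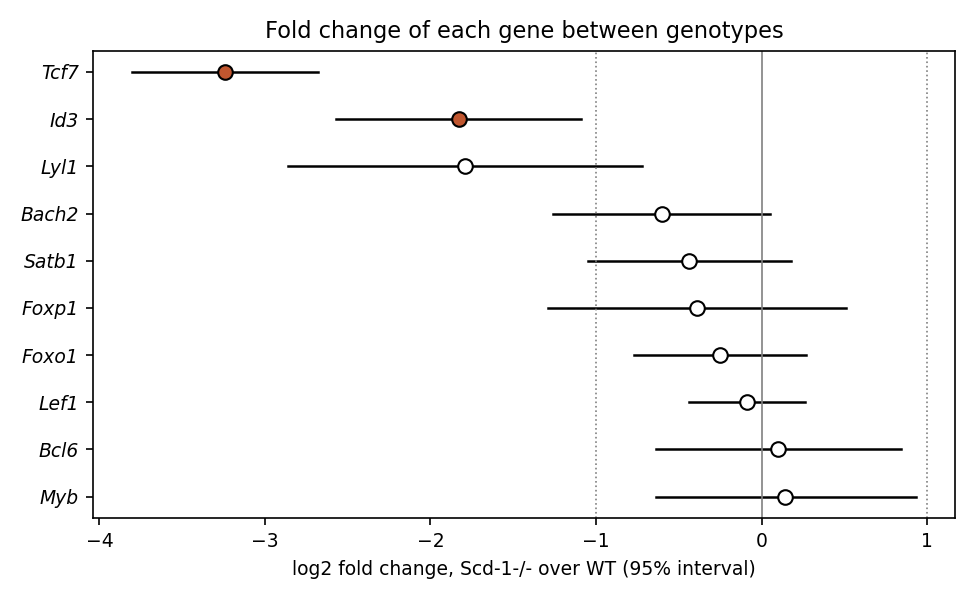
Log2 fold change (Scd-1-/- over WT) of the 10 genes with 95% intervals from edgeR, with dotted lines at a log2 fold change of 1 in either direction and filled points for genes past the thresholds of the study. Tcf7 (-3.24) and Id3 (-1.83) are filled, and the interval of Lef1 (-0.44 to 0.26) is the narrowest.

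The differences were also taken between libraries of the same replicate number, whose deviations from the group means went together. For Tcf7 the log2 ratio of CPM was -2.54, -3.60 and -3.57 in replicates 1, 2 and 3. For Id3 it was -1.24, -2.22 and -2.35. For Lyl1 it was -0.77, -2.81 and -1.46. In each of these genes replicate 1 had the smallest difference. Bach2 (-0.26, -0.41 and -1.21) and Satb1 (0.05, -0.44 and -1.20) were also nearest to 0 in replicate 1, whereas Bcl6 was below 0 in replicate 1 alone (-0.37, 0.23 and 0.48) and Foxo1 was below 0 in all 3 (-0.33, -0.15 and -0.32). With the replicate number as a block, the same 2 genes passed the thresholds, where 0.717% of all genes were lower past them, and both had an adjusted p under 0.05, where 2.06% of all genes were lower. With replicates 2 and 3 alone, 3 members passed the thresholds (Tcf7, Id3 and Lyl1), all lower, where 1.58% of all genes were lower past them, and 5 had an edgeR adjusted p under 0.05 and were lower. Of these 4 were among the genes above the FPKM minimum, where 6.07% were lower by that measure, and Bach2 came from the fit without a minimum, where 7.06% were. The additional ones by that measure were Lyl1 (-2.12, edgeR adjusted p = 0.0103), Bach2 (-0.71, edgeR adjusted p = 0.0145) and Satb1 (-0.78, edgeR adjusted p = 0.0168). DESeq2 on all 6 libraries called the same 2 genes past the thresholds (0.592% of all genes were lower past them) and Tcf7, Id3 and Lyl1 by an adjusted p under 0.05 (1.09% of all genes were lower), with Lyl1 at 0.0456.

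**Figure D4:**
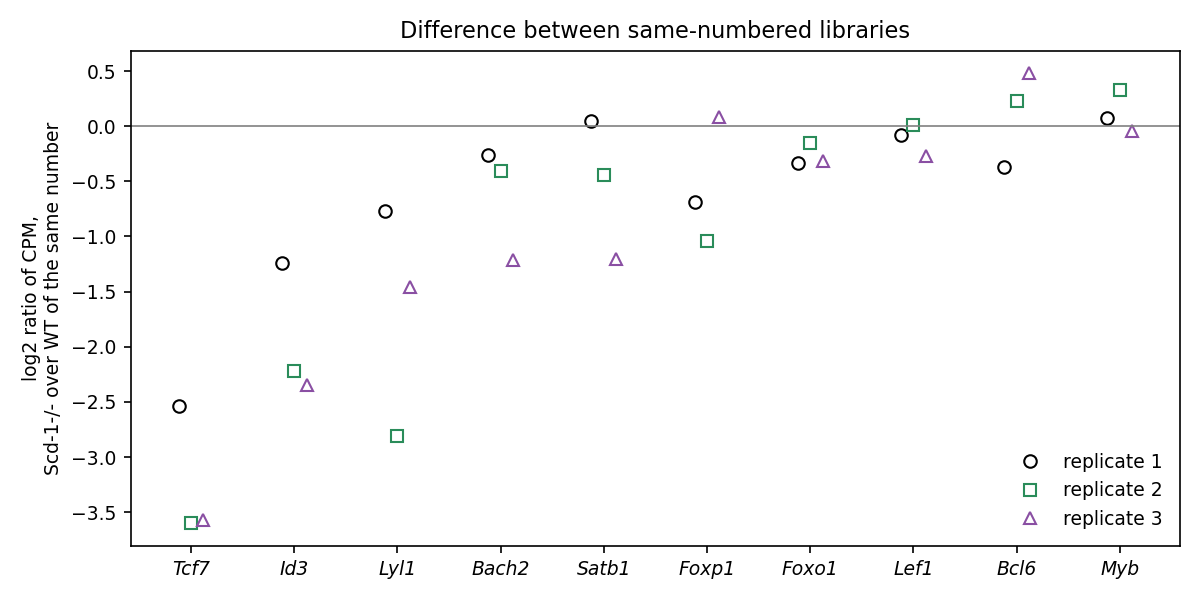
Log2 ratio of CPM between the Scd-1-/- and the WT library of the same replicate number for each gene, with 1 symbol per replicate and a line at 0. Tcf7, Id3, Lyl1, Bach2 and Foxo1 are below 0 in all 3 replicates, and replicate 1 is nearest to 0 for Tcf7 (-2.54) and Id3 (-1.24).

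The FPKM of the 10 genes together was 95.8, 131 and 125 in WT and 51.1, 49.2 and 47.9 in Scd-1-/- libraries. Tcf7 alone made up 45.7%, 59.5% and 53.0% of this sum in WT and 14.7%, 13.2% and 11.6% in Scd-1-/-. Without Tcf7 the sums were 52.0, 53.2 and 58.6 against 43.6, 42.7 and 42.4, so that this sum was also lower in each Scd-1-/- library, by a smaller margin. It does not stand for a decrease shared by the other 9 genes, of which only Id3 and Lyl1 had groups that did not overlap. Id3 fell from a mean of 8.28 to 2.29 FPKM, whereas Myb (11.8 and 12.8 FPKM) and Bcl6 (0.445 and 0.472 FPKM) did not fall. In order of mean FPKM the WT libraries ran Tcf7, Lef1, Myb, Id3, Foxo1, Satb1, Lyl1, Foxp1, Bach2 and Bcl6. Of the neighbours in this order, Lef1 and Myb, Myb and Id3, Id3 and Foxo1, Lyl1 and Foxp1, and Bach2 and Bcl6 had overlapping ranges. In Scd-1-/- libraries the order was Lef1, Myb, Foxo1, Tcf7, Satb1, Id3, Foxp1, Lyl1, Bcl6 and Bach2, and only Lyl1 and Bcl6 were neighbours whose ranges did not overlap. Tcf7 thus had rank 1 in WT and rank 4 in Scd-1-/- libraries, and Id3 went from rank 4 to rank 6.

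Levels of different genes depend on the gene length behind the FPKM, whereas the fold changes between genotypes do not. The deposited FPKM of Satb1 implied a length of 33133 bases, 5.31 times its longest coding transcript in GENCODE M21 (6243 bases), and that of Foxp1 implied 24319 bases, 3.39 times. Foxo1 and Lyl1, with 1 annotated transcript each, had a ratio of 1.00. Rescaled to the longest coding transcript, Satb1 reached 30.9 FPKM in WT against 22.4 FPKM in Scd-1-/-, above Myb (17.2 and 18.6 FPKM) and Id3 (14.9 and 4.11 FPKM). On that scale Tcf7 was still the highest in WT (85.0 FPKM, with Lef1 next at 39.8 FPKM) and at 8.83 FPKM in Scd-1-/-, where Lef1 was at 36.8 FPKM.

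RefSeq promoter windows (GRCm38.p6, from 250 bases before to 50 bases after a start) were searched on both strands for the letters that these factor families bind. All 10 genes had a window, 21 in all. The TCF and LEF letters CTTTGA were found in windows of 5 of the 10 genes (Lef1, Bach2, Foxp1, Bcl6 and Lyl1) and in 16% of the 32851 windows of all genes. The MYB letters AACNGNC were found in 8 of the 10 genes and 32.8% of all windows, and the forkhead letters GTAAACA in Tcf7 and Myb and 3.65% of all windows. The letters TTCNNNGAA of BCL6 were found in Bach2 and in Bcl6 itself (8.30% of all windows), those of BACH2 and AP-1, TGANTCA, in none of the 10 genes (7.81% of all windows), and the E-box CANNTG, which E proteins and LYL1 bind, in 8 genes (72.3% of all windows). Genes with several windows had more chances of a match, and a match of letters is no evidence of binding. The sites other than E-boxes in the 3 genes whose genotypes did not overlap, and the TCF and LEF sites of Lef1 for comparison, are printed on the strand of the gene with the matched letters in capitals. That of Tcf7 holds a forkhead match from base 2 and an overlapping MYB match from base 5. Base 1 is here one of its RefSeq starts, which lies inside the gene as GENCODE M21 draws it. The sites of Id3 hold MYB matches 150 and 68 bases before its RefSeq start. That start also lies inside the M21 gene, with all 250 bases before it in M21 exons. The Lyl1 site holds a TCF and LEF match 22 bases before the start. The Lef1 sites lie 180 and 120 bases before a start inside the gene.
Tcf7 forkhead and MYB, chr11:52282575-52282604, minus strand: ctttataggaGTAAACAGACccccgccatc
Id3 MYB, chr4:136143660-136143689, plus strand: cagcctaaggaaGCCTGTTagcaatttaaa
Id3 MYB, chr4:136143742-136143771, plus strand: ggacccttggcgGTCTGTTttgaataaggg
Lyl1 TCF and LEF, chr8:84701423-84701452, plus strand: agggggtggggtTCAAAGctagaccaacct
Lef1 TCF and LEF, chr3:131156102-131156131, plus strand: taaaatacatggTCAAAGgaaaataggtat
Lef1 TCF and LEF, chr3:131156162-131156191, plus strand: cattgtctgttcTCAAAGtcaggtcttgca

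Genes around the 10 factors were taken from 8 lists of 98 genes in all, of which 67 were tested. Past the thresholds, 1 was higher and 2 were lower in Scd-1-/- Teff, where 0.738% of all genes passed in either direction, and the median log2 fold change was -0.08. Both lower genes were in the list of surface and survival genes of naive and memory T cells, of which 15 of 19 were tested with a median of -0.60. They were Dapl1, a gene of unactivated T cells (28.1 ± 10.2 FPKM in WT to 2.34 ± 0.635 FPKM in Scd-1-/-, SD, n = 3 each here and for the genes that follow, log2 fold change -3.55, edgeR adjusted p = 0.0259), and Nrn1, which encodes neuritin (24.3 ± 5.86 to 5.72 ± 0.866 FPKM, -2.06, edgeR adjusted p = 0.0291). With the replicate block 4 genes of this list were lower past the thresholds (Dapl1, Nrn1, Ccr7 and Igfbp4) and 1, Txk, was higher, while the shares of all genes rose as well, to 0.717% lower and 1.19% higher. With replicates 2 and 3 alone Ccr7 (-1.95), Igfbp4 (-2.78) and Txk (1.88) passed as well, as did Actn1 (-1.35), with edgeR adjusted p of 0.00200 or less, where 3.83% of all genes passed in either direction. Rapgef4, under the FPKM minimum, was lower past the thresholds in the fit without one (0.293 ± 0.119 to 0.0531 ± 0.0128 FPKM, log2 fold change -2.43, edgeR adjusted p = 0.0851). The lymph node homing receptor Ccr7, which the study also picked on these libraries, had 55.9, 207 and 204 FPKM in WT and 35.8, 51.9 and 51.8 FPKM in Scd-1-/-, and it passed with the block (-1.53, edgeR adjusted p = 0.0190) and not without it (-1.71, edgeR adjusted p = 0.240). The IL-7 receptor gene Il7r (14.3 ± 1.42 and 14.2 ± 0.662 FPKM, log2 fold change 0.02) and Bcl2 (6.83 ± 0.596 and 6.79 ± 0.447 FPKM, 0.02) had like means in both genotypes.

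**Figure D5:**
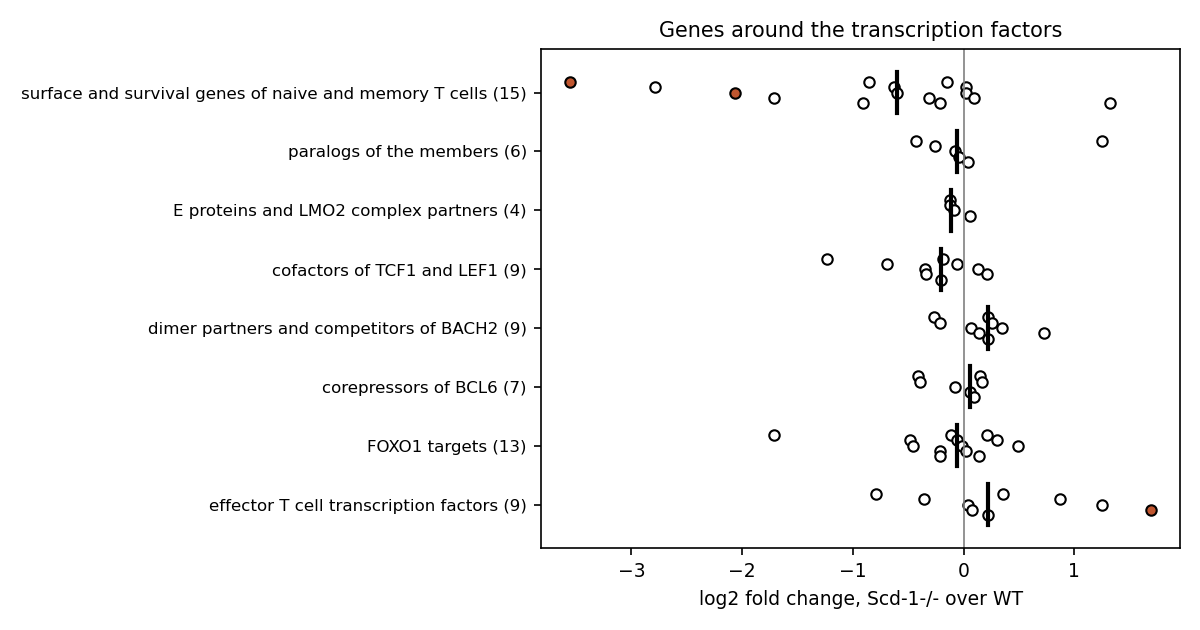
Log2 fold change (Scd-1-/- over WT) of the genes of each list with a mean FPKM of at least 1 (number in parentheses), with a bar at the list's median and filled points for genes past the thresholds of the study. The surface and survival genes have the lowest median (-0.60), with Dapl1 and Nrn1 filled, and Eomes is filled on the right among the effector factors.

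Of 13 FOXO1 targets, all tested, 0 passed the thresholds, with a median of -0.06, and with the block 1, Ccr7, was lower past them. The egress gene S1pr1 (-0.21, SE 0.462) and Klf2 (0.30, SE 0.686) did not pass and were highest in replicate 1 of both genotypes, as Foxo1 was. Paralogs of the 10 factors had 6 of 18 genes tested, 0 past the thresholds and a median of -0.06, and Id2 passed with the block. Foxo3 (-0.04), Foxo4 (-0.08) and Bach1 (0.04) had fold changes near 0. The E proteins and their LMO2 complex partners had 4 of 7 genes tested, 0 past the thresholds and a median of -0.11. Tcf3, which encodes the E proteins that ID3 binds, was at 21 ± 3.42 and 19.1 ± 0.880 FPKM.

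Cofactors of TCF1 and LEF1 had 9 of 16 genes tested, 0 past the thresholds and a median of -0.20. Among them Ctnnb1, the gene of beta-catenin, was at 22.6 ± 4.02 and 19.4 ± 3.15 FPKM, and Bcl9, a beta-catenin adaptor, was lower in each Scd-1-/- library without passing (-1.23, edgeR adjusted p = 0.279), and passed with replicates 2 and 3 alone (-1.77, edgeR adjusted p = 0.00358). The dimer partners and competitors of BACH2 had 9 of 11 genes tested, 0 past the thresholds and a median of 0.22, with Fosl2 at 0.73 (edgeR adjusted p = 0.291). The corepressors of BCL6 were all 7 tested, with 0 past the thresholds and a median of 0.06. Of 12 effector transcription factors 9 were tested, with a median of 0.22. Here 1 gene was higher, Eomes, the T-box factor that the study also picked on these libraries (3.95 ± 0.297 to 12.5 ± 2.78 FPKM, 1.69, edgeR adjusted p = 0.0359), where 0.499% of all genes were higher past the thresholds, and the related T-box gene Tbx21 was at 28.2 ± 9.07 and 28.6 ± 8.36 FPKM (0.04). Irf4, a factor induced by T cell receptor signals, had 38.8, 47.3 and 50.3 FPKM in WT and 20.1, 30.9 and 26.6 FPKM in Scd-1-/-, with a fold change under the threshold of size (-0.79, edgeR adjusted p = 0.177, and 0.00912 with the block). Tox, an exhaustion factor that the study also picked on these libraries and that lay under the FPKM minimum, had 43, 73 and 107 counts in WT and 16, 24 and 24 counts in Scd-1-/- libraries. The groups did not overlap, and it missed the thresholds (log2 fold change -1.85, edgeR adjusted p = 0.127) but was lower past them with the block (-1.80, edgeR adjusted p = 0.00888), where 0.855% of all genes with a count were. By flow cytometry the study reported elevated EOMES and TOX protein in Scd-1-/- Teff, for TOX opposite in direction to this RNA.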

How the data were processed

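The data are RNA-seq libraries of Teff, 3 WT and 3 Scd-1-/-, grouped by the sample labels. Reads were aligned by the authors with HISAT2 and counted with StringTie (version 1.3.0), on GRCm38 per the labels. The labels name poly(A) RNA and the methods a stranded total RNA kit. The authors deposited whole-number counts per gene without normalization. The deposited FPKM values are these counts divided by gene length and by the library's total. Counts were tested with edgeR's quasi-likelihood test (version 4.0.16, R 4.3.3, TMM scaling, no covariates), Benjamini-Hochberg adjusted over all genes tested. The package and cut-offs are those of the study, whereas the test, the unadjusted p and the FPKM minimum of 1 were chosen here. The SE is the fold change divided by the square root of F. The 14 alternatives included limma 3.58.1 on log2(FPKM + 1) and DESeq2 1.42.0. Same-numbered libraries deviated together across genes (r = 0.595, 0.306 and 0.470), so they were taken as pairs in a fit with the replicate number as a block. Positions are those of GENCODE M21. Scripts were tested on simulated data. Genes named are the 10 factors, Scd1, the listed and marker genes and, for each factor past the thresholds, the 3 genes most like it. The 10 factors, the lists and the tests were chosen with earlier results of these data known. Some listed genes are not reported here and were left out of the list counts.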

Additional observations from a re-analysis of the deposited data

How the results depend on the processing

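Of 140 member fold changes over the 14 alternatives, 129 kept their direction and their side of the thresholds, 5 (Id3, each without 1 library) lost the call, 2 (Lyl1) gained it and 4 turned sign. The last were Lef1 without WT replicate 1 (0.0048, range with 1 library left out -0.19 to 0.0048), Myb without WT replicate 1 (-0.09) or Scd-1-/- replicate 3 (-0.0423, range -0.09 to 0.42), and Bcl6 without WT replicate 3 (-0.0457, range -0.0457 to 0.32). Members past the thresholds numbered 1 to 2 with 1 library left out, where 0.260% to 1.69% of all genes passed in either direction. With all libraries they numbered 2 (0.738% of all genes). Without WT replicate 1 the 2 were Tcf7 and Lyl1, since Id3 lost its call. Members with an adjusted p under 0.05 numbered 1 with all libraries, where 0.0415% of all genes were lower by that measure. They numbered 2 without an FPKM minimum (0.174%), 3 with DESeq2 (1.09%) and 5 with replicates 2 and 3 alone (6.07%, or 7.06% without a minimum). With 1 library left out they numbered 0 (without Scd-1-/- replicate 3) to 2 (without Scd-1-/- replicate 1). The share of all genes by that measure is not given for those fits. Without Scd-1-/- replicate 3 the 0 is edgeR's, and Tcf7 then had an unadjusted p of 1.8e-05. Listed genes past the thresholds numbered 3 of 67 (0.738% of all genes), and 5 of 92 without an FPKM minimum (0.861%), 6 of 67 with DESeq2 (1.67%), 10 of 67 with replicates 2 and 3 alone (3.83%), and 3 to 6 with 1 library left out (6 without WT replicate 1, 5 without Scd-1-/- replicate 1), where all genes ranged from 0.260% to 1.69%.

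With the replicate block, members with an adjusted p under 0.05 numbered 2, where 2.06% of all genes were lower by that measure. Listed genes past the thresholds then numbered 7 (1.91% of all genes). The block changed no other count of members. The causes of these differences were not tested. Bcl6 and Lyl1 had the fewest counts of the members, with 15 to 105 per library.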

Other observations

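The genes whose log2 CPM over the 6 libraries was most like that of Tcf7, among 5814 genes whose FPKM averaged 5 or more, were 9530068E07Rik (Pearson r = 0.994), Mbp (0.993), the gene of myelin basic protein that also has a transcript in blood cells, and the tetraspanin gene Tspan3 (0.985). Their differences were far smaller than that of Tcf7, at 23.6 and 20.3 FPKM, 8.71 and 5.87 FPKM, and 24.3 and 15.7 FPKM in WT and Scd-1-/- Teff. Most like Id3 were the chemokine receptor gene Ccr4 (r = 0.996, 18.9 and 8.33 FPKM), the class I gene H2-Q4 (0.994, 54.0 and 45.6 FPKM) and Cnot8 (0.993, 28.1 and 23.7 FPKM), which encodes a deadenylase. H2-Q4 has near-identical relatives, so its counts are uncertain. The 6 libraries share their 2 genotypes and 3 replicate numbers, and these r values are descriptions with no test.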
